A study of Mus musculus with 4 samples.

Results

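The expression of 9 complement genes was followed across the cell classes of the mouse hippocampus. They are C1qa, C1qb, C1qc, C4b, C3, the receptor gene C3ar1 and the regulator genes Serping1, Cd55 and Csmd1. They were taken by gene symbol from the feature list, which held all 9 among 55403 genes. No measured value entered that choice, although the genes were picked with earlier results of these data known. Nuclei were profiled by droplet single-nucleus RNA sequencing, which counts unique molecular identifiers (UMIs), each standing for 1 captured RNA molecule.

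The study compared 3 genotypes with 1 WT library, 2 PS19 libraries and 1 TG_PS19 library, all from frozen hippocampal tissue that was pooled within a group. PS19 mice carry Tg(Prnp-MAPT*P301S)PS19Vle on a B6;C3 background, a transgene in which the Prnp (prion protein) promoter drives human 1N4R tau with the P301S mutation. TG_PS19 mice carry the same tau transgene and also the SORLA-Rosa26 transgene, which overexpresses the sorting receptor SORLA through a CMV/β-actin promoter. The third group is labelled WT, and littermates were used. The labels name aged animals in the title of the series but give no age, sex or number of animals for a library, and they do not say that the PS19 libraries came from separate animals.

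Complement is a protein cascade that tags cells and debris for removal. In the classical pathway the C1q complex, built from the chains of C1qa, C1qb and C1qc, binds a target and leads to cleavage of C4 and then C3, and the alternative pathway amplifies the cleavage of C3. In brain, microglia are known as the main source of C1q, whereas astrocytes can make C3 and C4, and fragments of C3 act on microglia through receptors such as C3aR. Serping1 encodes the C1 inhibitor, Cd55 encodes a surface protein that speeds the decay of C3 convertases, and Csmd1 encodes a large membrane protein with complement control domains that is known from neurons.

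RefSeq promoter sequences on build GRCm38.p6 matched 5 of the 9 genes, namely C1qb, C1qc, C3, C3ar1 and Cd55. The 250 bases before the RefSeq start are shown for 3 of them. C1qb was chosen to stand for the C1q genes, whose level in microglia did not pass a test below. C3, tested in astrocytes, and C3ar1, tested in microglia, are the matched genes whose level did. Capitals mark a match to the core of PU.1, GAGGAA, a factor known from microglia and macrophages. All 3 lie on the minus strand and are printed in the direction of transcription. The window of C1qb is chr4:136886201-136886450, that of C3 is chr17:57228137-57228386 and that of C3ar1 is chr6:122856158-122856407.
C1qb: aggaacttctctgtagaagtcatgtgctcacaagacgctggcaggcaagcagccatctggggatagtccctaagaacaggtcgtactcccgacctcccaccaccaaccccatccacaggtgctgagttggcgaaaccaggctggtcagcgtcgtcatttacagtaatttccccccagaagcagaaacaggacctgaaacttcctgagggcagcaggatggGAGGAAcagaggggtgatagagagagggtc
C3: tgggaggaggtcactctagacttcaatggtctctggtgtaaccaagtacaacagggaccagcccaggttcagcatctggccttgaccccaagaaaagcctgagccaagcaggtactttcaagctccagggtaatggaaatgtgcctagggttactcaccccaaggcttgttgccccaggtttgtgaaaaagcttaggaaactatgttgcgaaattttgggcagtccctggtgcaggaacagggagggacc
C3ar1: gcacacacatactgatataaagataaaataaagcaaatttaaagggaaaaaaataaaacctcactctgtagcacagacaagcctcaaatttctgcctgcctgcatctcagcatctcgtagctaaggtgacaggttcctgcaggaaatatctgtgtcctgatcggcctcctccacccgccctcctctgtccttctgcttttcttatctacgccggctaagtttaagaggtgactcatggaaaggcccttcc
Both strands were searched for 4 motifs: the PU.1 core, the STAT element TTCNNNGAA, and the interferon-stimulated response element and NF-kB element by their consensus. The C1qb window held 1 PU.1 core on the printed strand, from position -30 to -25 counted from the start, and the C1qc window held 1 on the opposite strand and 1 NF-kB match. The C1qc window, chr4:136892915-136893164, was set by the RefSeq start. It overlaps the gene position given below, which reaches 136893065, so its matches do not all lie before that start. The C3ar1 window, from 122856158, likewise overlaps by a few bases the gene position given below, which reaches 122856161. None of the 4 motifs occurred in the windows of C3, C3ar1 or Cd55. Over 32851 promoters of the same length, 23.3% held the PU.1 core, 2.98% the interferon element, 7.02% the STAT element and 3.90% the NF-kB consensus.

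The libraries held 4643 to 12762 barcodes and 20064025 to 48670533 UMIs, with medians of 2643 to 3708.5 UMIs per nucleus, and 11458 WT, 4467 and 4728 PS19 and 8963 TG_PS19 nuclei were kept. Clusters were named by marker genes that included no complement gene, so every class name below means nuclei that resemble the class. Tests were run in the 11 classes with 50 or more nuclei in each library. The TG_PS19 library stood apart: 51.1% of its nuclei had Xist UMIs and no Y-linked UMI, against at most 0.227% in the other libraries. For that reason results that rest on this library are also given for nuclei with a Y-linked UMI and no Xist UMI in all libraries, called Y-positive nuclei below. They numbered 7795 in WT, 3201 and 3563 in PS19 and 2158 in TG_PS19, so tests in them rest on fewer nuclei, above all in TG_PS19. Pairs of libraries shared 5 to 32 barcodes.

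Levels are given as CPM, the UMI count of a gene in the summed nuclei of a class, scaled to a class total of 1000000, with exact 95% Poisson intervals that cover counting error only. Changes are log2 fold changes from edgeR's quasi-likelihood test on UMI sums per class and library, with Benjamini-Hochberg adjustment over all genes of a class and a threshold of 0.05. WT and TG_PS19 had 1 library each and were assumed to vary like the PS19 pair, and both comparisons below share the PS19 libraries. Of 99 pairs of a member and a tested class, 59 passed the low-count filter: C1qa and Csmd1 in all 11 classes, C1qb in 10, C4b in 9, C1qc and Serping1 in 7, Cd55 in 2, and C3 and C3ar1 in 1 each.

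In PS19 against WT, 11 of the 59 pairs passed the test, where 3.05% of all gene and class pairs did. Of these, 7 were higher and 4 lower, beside 1.45% and 1.6% of all pairs. The 7 that rose were C4b in oligodendrocytes, oligodendrocyte precursors, astrocytes and fibroblasts, C3 and Serping1 in astrocytes, and C3ar1 in microglia. The 4 that fell were all Csmd1, in classes where its level was low. In TG_PS19 against PS19, 15 pairs passed, against 5.13% of all pairs, with 4 higher and 11 lower, beside 3.28% and 1.85% of all pairs. The lower ones were C4b in oligodendrocytes, their precursors and astrocytes, C3 and Serping1 in astrocytes, C3ar1 in microglia, and C1q genes in neurons, where their level was low. The 4 higher ones were all Csmd1 in classes with little of it. In TG_PS19 against WT, 4 pairs passed, against 2.43% of all pairs. All 4 were lower, beside 0.733% of all pairs lower and 1.7% higher, and none of them was C4b, C3, C3ar1 or Serping1. They were C1qa in CA1 pyramidal and dentate granule neurons and Csmd1 in microglia and oligodendrocytes. By class, the share of all genes that passed in PS19 against WT was 5.8% in oligodendrocytes, 5.48% in astrocytes, 9.33% in microglia, 0.65% in mural cells and 0.197% in Cajal-Retzius neurons. In TG_PS19 against PS19 it was 7.62% in oligodendrocytes, 0.109% in their precursors, 10.3% in astrocytes, 9.42% in microglia, 1.81% in fibroblasts, 0.983% in mural cells, 4.57% in CA1 pyramidal neurons, 9.36% in dentate granule neurons and 1.75% in inhibitory neurons. In TG_PS19 against WT it was 0.919% in microglia, 2.48% in oligodendrocytes, 3.83% in CA1 pyramidal neurons and 6.26% in dentate granule neurons. The median log2 change over the 59 pairs was -0.03 in PS19 against WT, beside 0.01 over all pairs, and -0.46 in TG_PS19 against PS19, beside -0.01. With DESeq2 the counts were 5, 6 and 0 in these comparisons, and in Y-positive nuclei, tested with edgeR, they were 9, 7 and 0. DESeq2 gave no adjusted p for 20 of the 59 pairs. For TG_PS19 against WT, 2 pairs had an unadjusted p under 0.05 with DESeq2 and 10 in Y-positive nuclei with edgeR, beside 15 over all nuclei with edgeR.

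**Figure D1:**
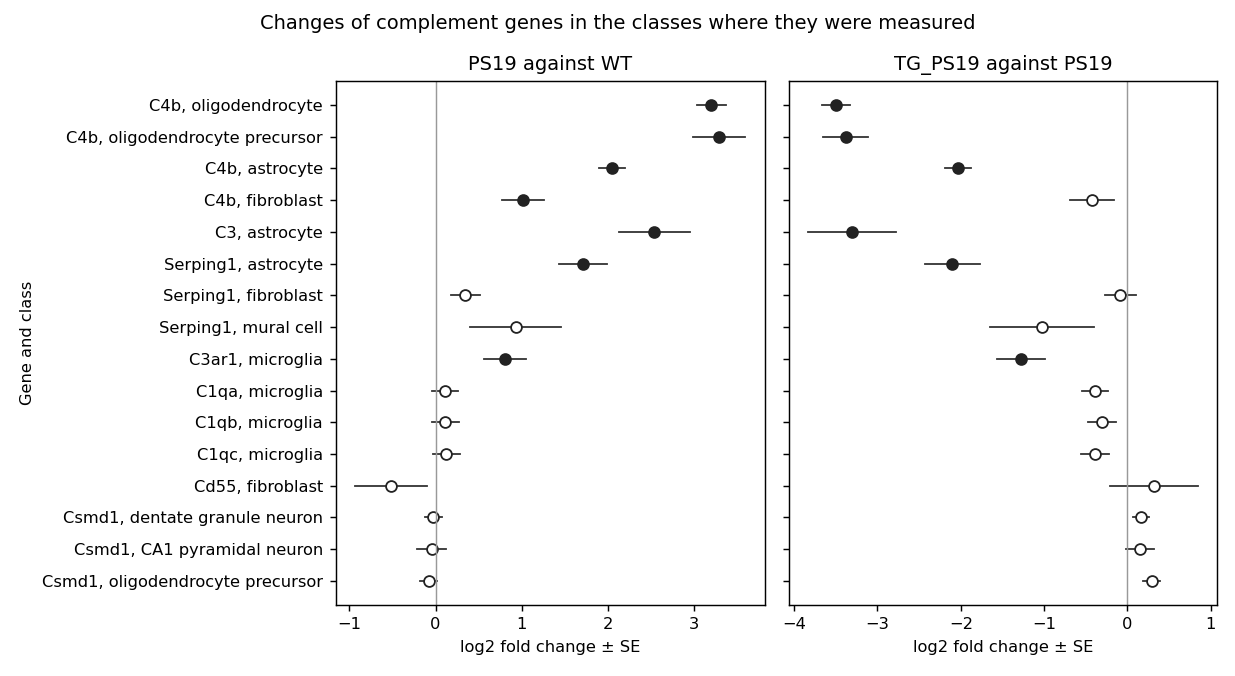
Log2 fold change (x axis, bars ± SE) of complement genes in the classes named on the y axis, for PS19 against WT on the left and TG_PS19 against PS19 on the right; filled points passed the test at an adjusted p of 0.05 and open points did not. C4b in oligodendrocytes lay at 3.20 on the left and -3.50 on the right, while the C1q genes in microglia lay between 0.11 and 0.12 on the left and between -0.39 and -0.30 on the right.

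C1qa, C1qb and C1qc lie side by side on chromosome 4 (GRCm38, C1qb from 136880129 to 136886187, C1qc from 136889804 to 136893065 and C1qa from 136895917 to 136898803, all minus strand). Their microglial level did not pass the test in either comparison. Values of the PS19 libraries are given with replicate 1 first. In microglia C1qa stood at 1603 CPM in WT, at 1980.3 and 1488 CPM in the PS19 libraries and at 1250.2 CPM in TG_PS19. C1qb stood at 619.7 CPM in WT, at 733 and 608 CPM in the PS19 libraries and at 513 CPM in TG_PS19. C1qc stood at 651 CPM in WT, at 825 and 598 CPM in the PS19 libraries and at 511 CPM in TG_PS19. For each of these genes PS19 replicate 1 was the highest library and TG_PS19 the lowest, and the WT value lay between the PS19 libraries.

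The log2 change of C1qa in microglia was 0.11 (SE 0.15) in PS19 against WT, with an edgeR adjusted p of 0.779, and those of C1qb and C1qc were 0.11 (SE 0.16) and 0.12 (SE 0.16). In TG_PS19 against PS19 the changes were -0.39 (SE 0.16) for C1qa, -0.30 (SE 0.17) for C1qb and -0.39 (SE 0.17) for C1qc, with edgeR adjusted p of 0.104, 0.310 and 0.138. Scaling by library totals in place of trimmed means gave C1qa an adjusted p of 0.0220 and C1qc one of 0.0423 in that comparison, while C1qb stayed above the threshold. Without PS19 replicate 1 the change of C1qa from WT to PS19 turned to -0.10, that of C1qb to -0.018 and that of C1qc to -0.11, so the direction of these small changes rested on that library.

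**Figure D2:**
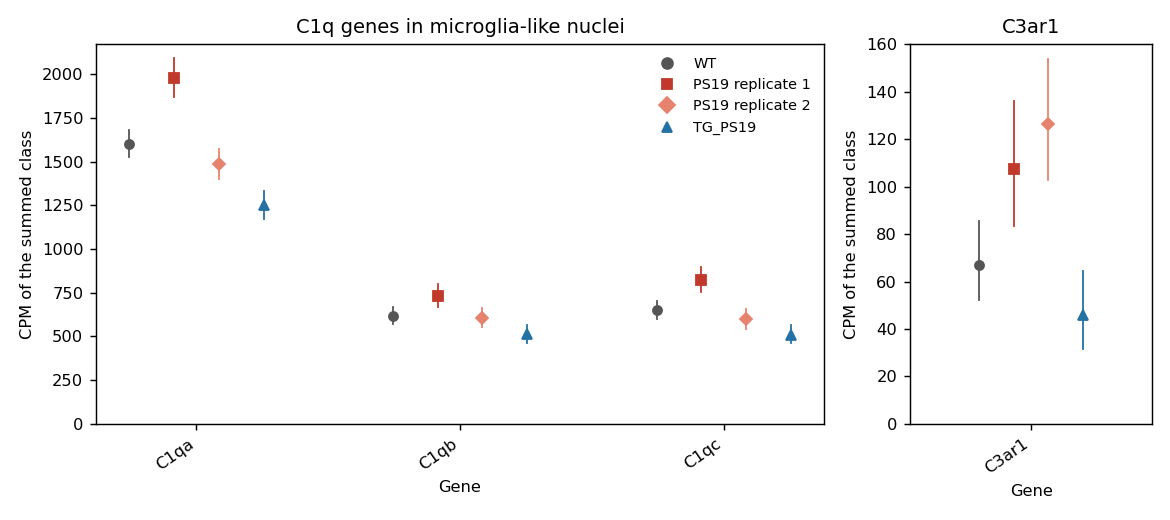
CPM of C1qa, C1qb and C1qc (left) and of C3ar1 (right) in the summed microglia-like nuclei of each library, with exact 95% Poisson intervals as bars. For the C1q genes the PS19 libraries lay on both sides of WT, whereas both PS19 libraries lay above WT and TG_PS19 for C3ar1.

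C1q transcripts were concentrated in microglia. Microglia held 53.8% of all C1qa UMIs of kept WT nuclei, 65.5% and 63.2% in the PS19 libraries and 50.9% in TG_PS19. These shares also move with the unnamed nuclei, which held 83 C1qa UMIs in WT, 23 and 42 in PS19 and 269 in TG_PS19. The largest unnamed cluster, with a median of 1028 UMIs per nucleus, held 122 nuclei from WT, 20 and 23 from PS19 and 659 from TG_PS19. After thinning each nucleus to 1000 UMIs, 75.8% of WT microglia, 81.2% and 71.9% of PS19 microglia and 68.0% of TG_PS19 microglia had a C1qa UMI, and in the other 10 tested classes the shares ran from 0% to 8.53%. Before thinning the microglial shares were 89.0%, 95%, 94.0% and 81.5%, at medians of 1605, 2201, 2571.5 and 1642.5 UMIs per nucleus. A small unnamed cluster led by Mrc1, Cd74 and F13a1, genes known from macrophages at brain borders, also held C1qa at 949 CPM in WT, at 1174 and 1085 CPM in the PS19 libraries and at 923 CPM in TG_PS19, from 6 to 21 nuclei a library.

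Outside microglia C1q stood at a low level in all tested classes, for C1qa at 14.9 to 81.2 CPM in WT. Whether this level is background or expression was not tested. Over the other tested classes together C1qa stood at 33.9 CPM in WT, at 35.9 and 27.3 CPM in the PS19 libraries and at 19.3 CPM in TG_PS19. There the ratio of C1qb to C1qa UMIs was 0.395, 0.429, 0.400 and 0.427 in that order of libraries, beside 0.386, 0.370, 0.409 and 0.410 in microglia. The ratio of C1qc to C1qa was 0.289, 0.344, 0.309 and 0.334, lower than the 0.406, 0.417, 0.402 and 0.409 of microglia. At this level C1qa was lower in TG_PS19 than in PS19 in CA1 pyramidal, dentate granule and inhibitory neurons, with log2 changes of -1.50, -0.78 and -2.02, and C1qb and C1qc were lower in dentate granule neurons, with log2 changes of -1.24 and -1.18. None of these 5 differences passed in Y-positive nuclei, where the edgeR adjusted p ran from 0.0884 to 0.795. In TG_PS19 these were only 148 of 437 CA1 pyramidal, 213 of 992 dentate granule and 59 of 162 inhibitory neurons. Without PS19 replicate 1 the change of C1qb in dentate granule neurons was -0.63.

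**Figure D3:**
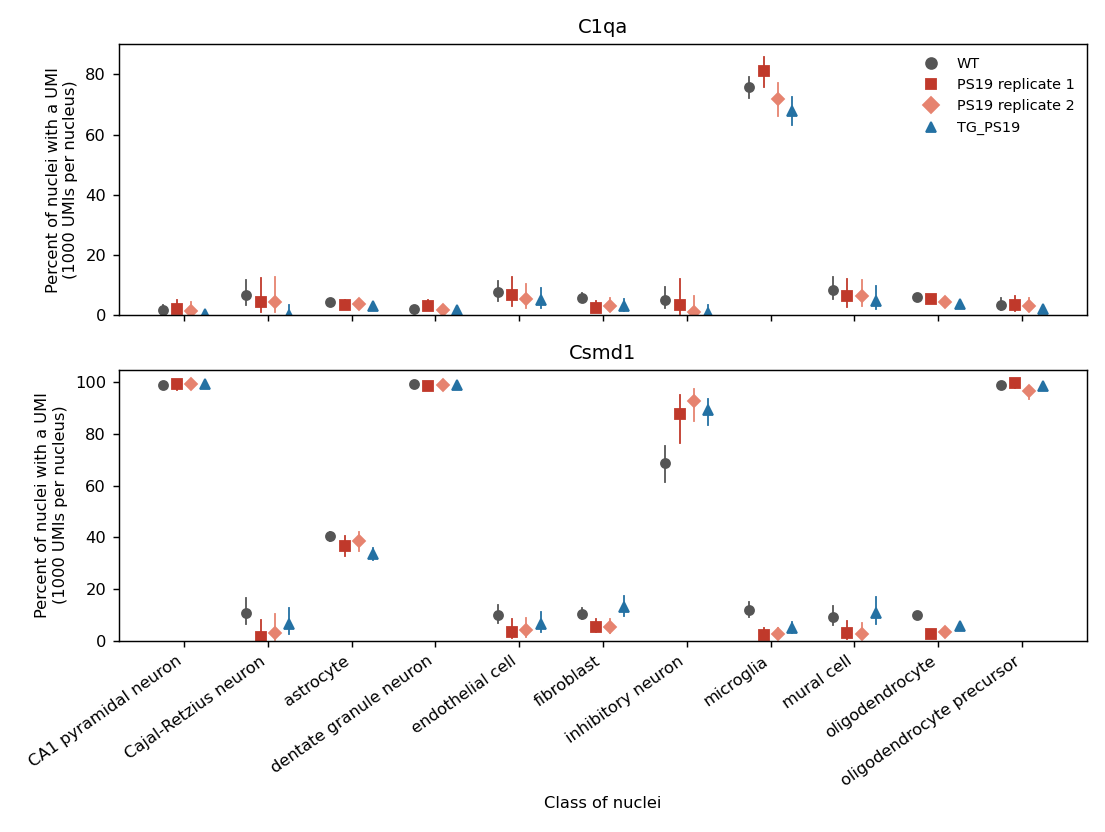
Percent of nuclei with at least 1 UMI of C1qa (top) and Csmd1 (bottom) after thinning every nucleus to 1000 UMIs, by class and library, with exact 95% binomial intervals as bars. C1qa is at 68.0% to 81.2% in microglia and at most 8.53% elsewhere, and Csmd1 is at 96.7% to 99.6% in CA1 and dentate granule neurons and oligodendrocyte precursors.

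C4b, the mouse gene of complement component C4, lies on chromosome 17 (GRCm38, 34728380 to 34743882, minus strand). It rose in oligodendrocytes, their precursors and astrocytes of PS19 mice and was lower in TG_PS19 than in PS19. In oligodendrocytes C4b stood at 31.2 CPM in WT, at 315 and 242 CPM in the PS19 libraries and at 23.7 CPM in TG_PS19, from 206, 1468, 1417 and 150 UMIs. In oligodendrocyte precursors it stood at 8.27 CPM in WT, at 81.4 and 77.9 CPM in the PS19 libraries and at 7.13 CPM in TG_PS19. In astrocytes it stood at 53.6 CPM in WT, at 257 and 195 CPM in the PS19 libraries and at 48.0 CPM in TG_PS19. In each of these glial classes both PS19 libraries lay far above the others, and the WT and TG_PS19 levels were close together.

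From WT to PS19 the log2 change of C4b was 3.20 (SE 0.16) in oligodendrocytes with an edgeR adjusted p of 2.93e-19, or 9.22-fold. It was 3.29 (SE 0.30) in oligodendrocyte precursors, or 9.80-fold, with an edgeR adjusted p of 0.0160, in a class where 0.116% of genes passed. It was 2.04 (SE 0.15) in astrocytes, or 4.12-fold, with an edgeR adjusted p of 8.34e-38. From PS19 to TG_PS19 the change was -3.50 (SE 0.17) in oligodendrocytes, -3.38 (SE 0.27) in oligodendrocyte precursors and -2.03 (SE 0.16) in astrocytes, with edgeR adjusted p of 1.66e-20, 0.00819 and 1.73e-34. Between TG_PS19 and WT the differences were -0.29 (SE 0.21), -0.09 (SE 0.47) and 0.01 (SE 0.18), and none passed. In Y-positive nuclei the changes from PS19 to TG_PS19 were -3.39, -3.13 and -1.96, and all 3 passed. With nuclei thinned to 1000 UMIs the oligodendrocyte change was of the same size, 3.27 and -3.46, but did not pass, with edgeR adjusted p of 0.181 and 0.216.

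**Figure D4:**
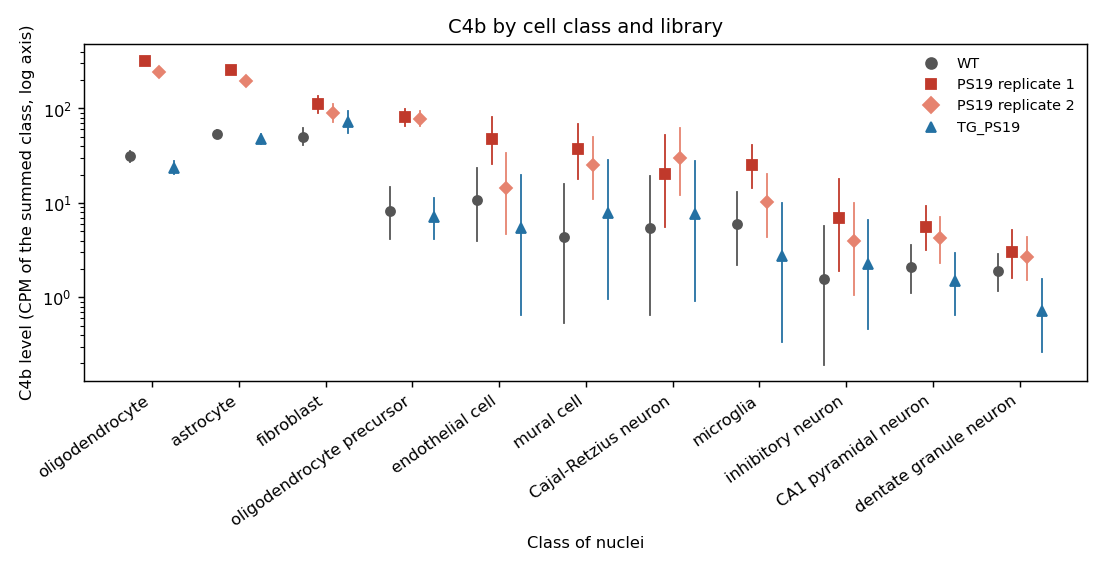
CPM of C4b on a log axis in each tested class and library, with exact 95% Poisson intervals as bars and classes ordered by their highest value. In oligodendrocytes, astrocytes and oligodendrocyte precursors the PS19 libraries lay above WT and TG_PS19 with no overlap of the intervals, and CA1, dentate granule and inhibitory neurons lay at 6.96 CPM or below in every library.

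The number of nuclei with a C4b UMI moved in the same way. Among oligodendrocytes 5.31% had a C4b UMI in WT, 42.9% and 41.9% in PS19 and 4.51% in TG_PS19, where the median nucleus held 1933, 2403, 3021 and 1997 UMIs. After thinning these shares were 2.94%, 24.4%, 21.2% and 2.40%. Dentate granule neurons, taken as a class that should lack C4b, gave thinned shares of 0.125%, 0.211%, 0.183% and 0.202%, at medians of 6515.5 to 10139 UMIs. Among astrocytes 13.6%, 48.8%, 49.4% and 12.7% had a C4b UMI at medians of 2872, 3687, 4480 and 3056 UMIs, and the thinned shares were 5.85%, 22.5%, 15.6% and 4.74%. The thinned share, like the level in CPM, was higher in astrocytes than in oligodendrocytes in WT and TG_PS19 and higher in oligodendrocytes in both PS19 libraries.

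The rise of C4b was larger in oligodendrocytes than in astrocytes. In a model with class and genotype as interacting terms and each library as a block, the oligodendrocyte change exceeded that of astrocytes by 1.22 (SE 0.15) on the log2 scale in PS19 against WT, with an edgeR adjusted p of 5.46e-13, where 4.81% of genes passed. The same difference was -1.48 (SE 0.17) in TG_PS19 against PS19, with an edgeR adjusted p of 2.53e-14, where 3.44% of genes passed. DESeq2 gave the first difference as 1.16 with an adjusted p of 0.0573. Of all C4b UMIs of a library, oligodendrocytes held 22.6% in WT, 61.6% and 59.9% in PS19 and 27.4% in TG_PS19, and astrocytes held 48.5%, 26.6%, 28.3% and 46.5%. These shares also move with the number of oligodendrocyte nuclei, which was 3255 in WT, 1811 and 1837 in PS19 and 2993 in TG_PS19.

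Clusters within these classes were examined after the class results had been seen. The 4 oligodendrocyte clusters held C4b at 24.7 to 38.8 CPM in WT and at 19.1 to 30.3 CPM in TG_PS19. In the PS19 libraries they held it at 180.5 to 359 CPM, so the higher level was present in all 4 clusters. Fitted alone, the clusters gave log2 changes of 3.47, 3.06, 2.49 and 3.74 in PS19 against WT and of -3.75, -3.37, -3.41 and -3.36 in TG_PS19 against PS19, and all 8 passed, where 5.34%, 2.55%, 1.67% and 0.361% of genes passed in the first comparison and 5.95%, 3.01%, 2.7% and 0.672% in the second. The summed astrocyte markers were lower in PS19 oligodendrocytes, at 294 and 248 CPM against 629 CPM in WT and 469 CPM in TG_PS19.

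C4b was also found in fibroblasts, the cells of the meninges and vessel walls. It stood there at 50.4 CPM in WT, at 111 and 90.1 CPM in the PS19 libraries and at 72.4 CPM in TG_PS19. The change from WT to PS19 was 1.01 (SE 0.24) with an edgeR adjusted p of 0.00291, in a class where 2.42% of genes passed, and it did not pass with DESeq2, without a low-count filter or with thinning. From PS19 to TG_PS19 it was -0.42 (SE 0.27) and did not pass. In microglia C4b stood at only 6.02 CPM in WT, at 25.3 and 10.2 CPM in the PS19 libraries and at 2.78 CPM in TG_PS19, from 2 to 16 UMIs, and no change passed there or in mural or endothelial cells. The neighbouring copy C4a, whose reads could be confused with those of C4b, had at most 14 UMIs in any class of a library, in WT dentate granule neurons.

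C3, the central protein of all complement pathways, was measured on chromosome 17 (GRCm38, 57203970 to 57228136, minus strand). It was scarce, and among the tested classes it was found mainly in astrocytes, the 1 class in which it passed the low-count filter. Astrocytes gave 18 C3 UMIs in WT, 39 and 37 in PS19 replicates 1 and 2, and 6 in TG_PS19, or 2.18, 15.8, 10.8 and 1.13 CPM. Every other tested class had at most 2 C3 UMIs in a library. Ependymal-like nuclei, too few to be tested, held C3 at 65.7 CPM in PS19 replicate 1, from 6 UMIs in 27 nuclei, and at 21.6 CPM in PS19 replicate 2, from 1 UMI in 11 nuclei. Both PS19 libraries were the highest, although only 3.97% and 2.50% of their astrocytes had a C3 UMI, against 0.542% in WT and 0.244% in TG_PS19, and the thinned shares were 0.218%, 0.479%, 0.694% and 0.185% from WT to TG_PS19. None of 1598 dentate granule neurons in WT had a C3 UMI, for which the exact 95% interval reaches 0.231%.

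The log2 change of C3 in astrocytes was 2.54 (SE 0.41) in PS19 against WT, or 5.82-fold, with an edgeR adjusted p of 6.56e-08. In TG_PS19 against PS19 it was -3.31 (SE 0.52) with an edgeR adjusted p of 2.66e-08, and C3 passed in that comparison in Y-positive nuclei too, with an edgeR adjusted p of 0.000294. There astrocytes gave 12 C3 UMIs in WT, 31 and 32 in PS19 and 0 in TG_PS19. A floor of 3 UMIs, set for a count of 0, would be 1.86 CPM there, against 15.1 and 11.1 CPM in the PS19 libraries. DESeq2 did not call the first change, with an adjusted p of 0.171. In nuclei thinned to 1000 UMIs, where few C3 UMIs are left, neither change passed, with edgeR adjusted p of 0.742 and 0.809.

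Most astrocyte C3 came from 1 cluster, whose leading genes included Sfta3-ps, Myoc, Hpse2 and Gfap. Of these, Myoc and Gfap are known from astrocytes of the brain surface and white matter. This cluster gave 17 of the 18 WT UMIs, 33 of 39 and 37 of 37 PS19 UMIs, and 6 of 6 TG_PS19 UMIs. It held 288 of 2765 WT astrocytes, 176 of 629 and 192 of 721 PS19 astrocytes and 95 of 1641 TG_PS19 astrocytes, numbers that depend on how the clusters were drawn and are given as denominators. Within it C3 stood at 20.8 CPM in WT, at 46.5 and 38.5 CPM in the PS19 libraries and at 21.6 CPM in TG_PS19. The changes within this cluster were 1.02 (SE 0.41) and -0.86 (SE 0.59), against 2.54 and -3.31 over all astrocytes, and neither passed, with edgeR adjusted p of 0.143 and 0.582. The part that the mix of astrocyte clusters has in the change of the class was not tested. At a resolution of 2.0 a separate unnamed cluster was led by Sfta3-ps and Hpse2. It held 62 nuclei from WT, 12 and 24 from PS19 and 4 from TG_PS19. The part of such nuclei in the levels of the Gfap and Myoc cluster was not tested either.

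**Figure D5:**
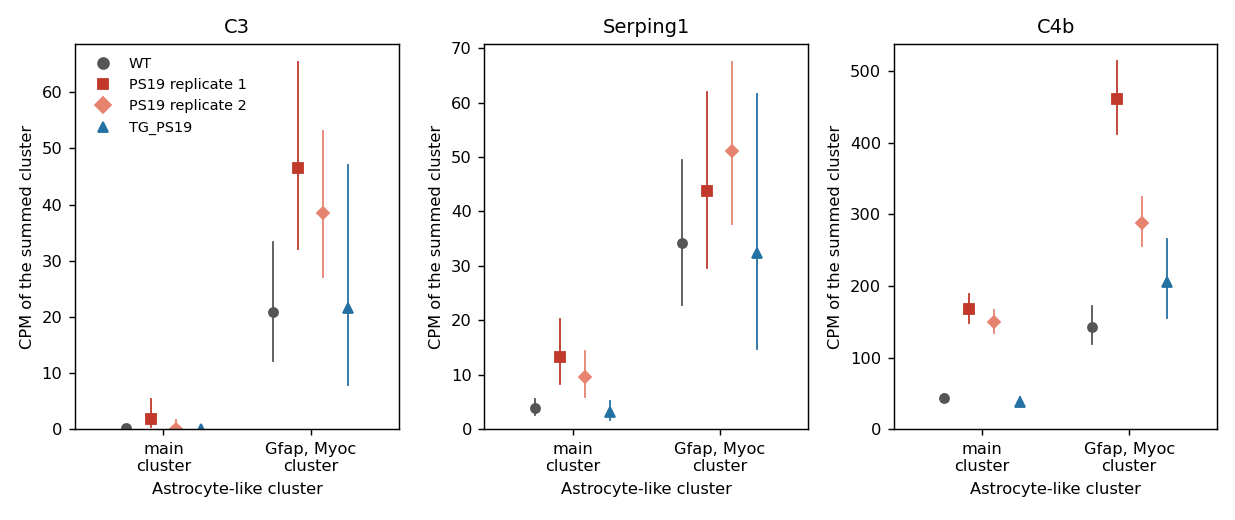
CPM of C3, Serping1 and C4b in the main astrocyte-like cluster and in the cluster led by Gfap and Myoc, by library, with exact 95% Poisson intervals as bars. C3 is at or near 0 in the main cluster, and C4b is higher in both PS19 libraries than in WT in both clusters.

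A smaller astrocyte cluster led by Adgrv1 held 154 nuclei from WT, 27 and 34 from PS19 and 75 from TG_PS19. With under 50 nuclei in each PS19 library, it was not fitted alone. C4b was present in the main astrocyte cluster and in the Gfap and Myoc cluster. In the main one it stood at 43.9 CPM in WT, at 168 and 149.7 CPM in the PS19 libraries and at 38.7 CPM in TG_PS19, with log2 changes of 1.88 (SE 0.16) and -1.91 (SE 0.17) that passed, where 2.09% and 4.09% of genes did. In the Gfap and Myoc cluster it stood at 143 CPM in WT, at 461 and 289 CPM in the PS19 libraries and at 205 CPM in TG_PS19. There the change from WT to PS19 was 1.39 (SE 0.21) and passed, where 5.5% of genes did, and that from PS19 to TG_PS19 was -0.76 (SE 0.24), with an edgeR adjusted p of 0.0778.

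C3ar1, the gene of the receptor for the C3a fragment, lies on chromosome 6 (GRCm38, 122847138 to 122856161, minus strand) and was found in microglia. It stood there at 67.2 CPM in WT, at 107 and 127 CPM in the PS19 libraries and at 45.8 CPM in TG_PS19, from 67, 68, 99 and 33 UMIs. Both PS19 libraries lay above WT and TG_PS19. In the 3 neuron classes taken as background it stood at 0.377 to 6.96 CPM. The log2 change was 0.81 (SE 0.25) in PS19 against WT, or 1.75-fold, with an edgeR adjusted p of 0.0167, and -1.27 (SE 0.29) in TG_PS19 against PS19, with an edgeR adjusted p of 0.000386. Both calls were lost in Y-positive nuclei, where the changes were 0.79 and -1.26 with edgeR adjusted p of 0.0975 and 0.164, and with DESeq2, where they were 0.81 and -1.28. Both were also lost with thinning, where the changes were smaller, at 0.17 and -0.78, and the first was lost with doublets kept, at 0.92 with an edgeR adjusted p of 0.0593. The thinned share of microglia with a C3ar1 UMI was 6.27% in WT, 7.03% and 8.19% in PS19 and 4.06% in TG_PS19, so WT and PS19 were close on that measure. Clustered more finely, at a resolution of 2.0, the microglia of the groups fell mostly into different clusters: 1 cluster took 572 nuclei from WT, 91 from each PS19 library and 406 from TG_PS19, while another took 16 from WT, 169 and 191 from PS19 and 4 from TG_PS19. In the former C3ar1 stood at 65.9 CPM in WT, at 81.4 and 86.1 CPM in the PS19 libraries and at 46.3 CPM in TG_PS19, from 14 to 63 UMIs. In the latter it stood at 117 and 142 CPM in the PS19 libraries, beside 4 UMIs in WT and 0 in TG_PS19. These levels within clusters were not tested. None of the C1q genes passed in the same microglia, and the difference between C3ar1 and the C1q genes was not tested.

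Serping1, on chromosome 2 (GRCm38, 84765387 to 84775444, minus strand), blocks the proteases that start the classical pathway. Its level was highest in fibroblasts, at 192 CPM in WT, at 275 and 208 CPM in the PS19 libraries and at 219.9 CPM in TG_PS19, where its changes of 0.35 (SE 0.17) and -0.09 (SE 0.19) did not pass. In astrocytes it was low, at 6.65 CPM in WT, at 22.3 and 22.1 CPM in the PS19 libraries and at 4.52 CPM in TG_PS19. The astrocyte change was 1.71 (SE 0.28) in PS19 against WT and -2.10 (SE 0.33) in TG_PS19 against PS19, with edgeR adjusted p of 1.85e-07 and 2.63e-08, while DESeq2 gave 0.272 for the first. In the main astrocyte cluster alone the changes were 1.55 (SE 0.43) and -1.71 (SE 0.49) and passed, and in the Gfap and Myoc cluster, where the level was higher at 32.4 to 51.0 CPM, they were 0.49 (SE 0.36) and -0.46 (SE 0.51) and did not. In mural cells Serping1 stood at 30.7 CPM in WT, at 63.0 and 53.9 CPM in the PS19 libraries and at 27.6 CPM in TG_PS19, from 7 to 17 UMIs, and no change passed.

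Cd55, on chromosome 1 (GRCm38, 130439027 to 130462744, minus strand), was scarce in every tested class. Fibroblasts had the highest tested level, at 21.4 CPM in WT, at 13.4 and 15.9 CPM in the PS19 libraries and at 17.8 CPM in TG_PS19, from 12 to 39 UMIs. There were 2 fibroblast clusters, and the smaller held 185 of 868 WT, 42 of 330 and 42 of 294 PS19 and 37 of 347 TG_PS19 fibroblasts. In it Cd55 stood at 58.9 CPM in WT, at 34.5 and 74.3 CPM in the PS19 libraries and at 89.5 CPM in TG_PS19, from 30 of 39, 5 of 12, 12 of 15 and 9 of 14 UMIs, and in the other cluster at 3.84 to 9.35 CPM. The changes in the class were -0.52 (SE 0.42) and 0.32 (SE 0.53), and those in CA1 pyramidal neurons, the other class it was tested in, were -0.22 (SE 0.82) and 0.01 (SE 0.88). None passed, and the 95% intervals in fibroblasts ran from -1.33 to 0.30 and from -0.72 to 1.35. Cd55 was also found in nuclei too few to be tested. In ependymal-like nuclei it stood at 65.7 and 21.6 CPM in the PS19 libraries and 82.4 CPM in TG_PS19, from 1 to 6 UMIs. In choroid plexus-like nuclei it stood at 42.1 and 6.21 CPM in the PS19 libraries and 33.6 CPM in TG_PS19, from 1 to 8 UMIs.

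Csmd1, on chromosome 8 (GRCm38, minus strand, with a gene length of 1643050 bases), had by far the most UMIs, which in nuclei also come from its long introns. It was high in CA1 pyramidal, dentate granule and inhibitory neurons and in oligodendrocyte precursors, and its level there did not pass the test in any comparison. In CA1 pyramidal neurons it stood at 5763 CPM in WT, at 5520.5 and 6169 CPM in the PS19 libraries and at 6051 CPM in TG_PS19, and in dentate granule neurons at 5449 CPM, 5051 and 5481 CPM, and 5510.4 CPM. In oligodendrocyte precursors it stood at 5922 CPM in WT, at 5337 and 5557 CPM in the PS19 libraries and at 6288 CPM in TG_PS19. The log2 changes in these classes ran from -0.08 to -0.03 in PS19 against WT and from 0.15 to 0.29 in TG_PS19 against PS19. Inhibitory neurons stood at 3896 to 4747 CPM and astrocytes at 680.2 to 995 CPM, with no change that passed. The thinned share of inhibitory neurons with a Csmd1 UMI was 68.7% in WT and 87.9%, 92.8% and 89.4% in PS19 and TG_PS19, so WT was the lowest library in the share as in the level.

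In classes where Csmd1 was low it differed between libraries. The thinned shares in the 6 classes of microglia, oligodendrocytes, fibroblasts, mural cells, endothelial cells and Cajal-Retzius neurons were 9.30% to 11.8% for WT, 1.47% to 5.50% and 2.49% to 5.17% for the PS19 libraries, and 4.82% to 13.1% for TG_PS19. The change from WT to PS19 was -2.62 in microglia, -1.61 in oligodendrocytes, -1.99 in mural cells and -1.98 in Cajal-Retzius neurons, and these 4 passed. In Cajal-Retzius neurons the value without PS19 replicate 2 was -3.16, from 3 UMIs in replicate 1. The change from PS19 to TG_PS19 was 1.02, 0.97 and 1.92 in microglia, oligodendrocytes and mural cells and 0.86 in fibroblasts, and these 4 passed, but in Y-positive nuclei only that in oligodendrocytes did. The level in CPM did not move alike in all 6 classes: in endothelial cells Csmd1 stood at 151 CPM in WT, at 222 and 63.7 CPM in the PS19 libraries and at 70.7 CPM in TG_PS19, and the 60 UMIs of PS19 replicate 1 came from 6 nuclei. The summed level of 10 inhibitory neuron markers in microglia stood at 96.3 CPM in WT, at 14.2 and 25.6 CPM in the PS19 libraries and at 41.7 CPM in TG_PS19, beside Csmd1 at 170.5, 26.9, 28.1 and 52.8 CPM. The part of neuronal RNA in these differences was not tested.

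The rest of the pathway was taken from a list of 52 complement genes that includes the members. Of the other 43 genes, 30 passed the filter in at least 1 class and 13 in none, which gave 178 pairs of gene and class. In PS19 against WT 19 of the 178 pairs passed, 6 higher and 13 lower, where 3.05% of all pairs passed, 1.45% higher and 1.6% lower. In TG_PS19 against PS19 21 passed, 14 higher and 7 lower, where 5.13% of all pairs passed, 3.28% higher and 1.85% lower. The classical proteases and C2, the alternative pathway genes and the terminal pathway genes gave no call in either comparison, with 3, 1 and 2 of their genes tested. The calls fell on lectin pathway genes, receptors and regulators, and they were not recomputed in Y-positive nuclei.

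Among the lectin pathway genes, Colec12, a scavenger receptor of the collectin family, rose in PS19 microglia. Its level there, like the other pathway levels below scaled by trimmed means, stood at 53.9 CPM in WT, at 576 and 574 CPM in the PS19 libraries and at 149 CPM in TG_PS19, with log2 changes of 3.41 (SE 0.22) and -1.94 (SE 0.20). In TG_PS19 against WT it was still higher by 1.47 (SE 0.29), with an edgeR adjusted p of 0.000255. In the finer microglial cluster that held most WT and TG_PS19 nuclei, Colec12 stood at 31.4 CPM in WT, at 262 and 353 CPM in the PS19 libraries and at 129 CPM in TG_PS19, without that scaling. Masp1, a protease of the lectin pathway, changed in oligodendrocytes, at 15.1 CPM in WT, at 36.7 and 36.2 CPM in the PS19 libraries and at 13.1 CPM in TG_PS19, by 1.27 (SE 0.19) and -1.47 (SE 0.20).

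Of the receptors, Itgax, the alpha chain of complement receptor 4, rose in PS19 microglia from 5.09 CPM in WT to 48.0 and 46.9 CPM and was 2.99 CPM in TG_PS19, with changes of 3.18 (SE 0.54) and -3.92 (SE 0.69). In the PS19 libraries 25 of 30 and 34 of 36 Itgax UMIs came from the finer microglial cluster that held few WT and TG_PS19 nuclei. Colec12 and Itgax were not barred from the variable genes that drew these clusters. Itgam, the alpha chain of complement receptor 3, was higher in TG_PS19 than in PS19 microglia, by 0.79 (SE 0.22). Cr2 was lower in PS19 astrocytes and oligodendrocytes than in WT, with log2 changes of -0.78 and -0.94, and higher in TG_PS19 than in PS19 in both classes and in microglia, by 0.77, 0.89 and 2.02.

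Of the regulators, Clu, which encodes the secreted chaperone clusterin, stood in astrocytes at 1455 CPM in WT, at 2049.98 and 1162 CPM in the PS19 libraries and at 832 CPM in TG_PS19. It was lower in TG_PS19 than in PS19 with a log2 change of -0.95 (SE 0.12) and lower than in WT with a log2 change of -0.81 (SE 0.13), while the PS19 libraries lay on both sides of WT and that change did not pass. Outside astrocytes Clu was lower in PS19 than in WT in dentate granule neurons, fibroblasts, microglia and oligodendrocytes, with log2 changes of -1.07, -1.31, -1.57 and -1.43, beside the lower astrocyte markers already given for oligodendrocytes. Whether the lower Clu there and the lower astrocyte markers have the same source was not tested. Vtn was lower in PS19 than in WT in astrocytes, dentate granule neurons and oligodendrocytes, with log2 changes of -1.25, -1.01 and -1.08, and lower in TG_PS19 than in PS19 in fibroblasts, with a log2 change of -0.69. Vtn was among the leading genes of the mural cell cluster, and the part of mural RNA in these differences was not tested. Cd59a, which blocks the membrane attack complex, was lower in TG_PS19 astrocytes than in PS19 ones with a log2 change of -1.59, and Cd46 was higher in dentate granule neurons by 0.38.

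The relatives of Csmd1 also gave calls. Csmd2 was higher in PS19 oligodendrocytes than in WT, by 0.63, and lower in TG_PS19 than in PS19, with a log2 change of -0.40. Csmd3 was high in microglia, at 6462 CPM in WT, at 3817 and 4468 CPM in the PS19 libraries and at 9147 CPM in TG_PS19, with changes of -0.64 (SE 0.14) and 1.14 (SE 0.14), and it was also higher in TG_PS19 than in PS19 in dentate granule neurons and oligodendrocytes, by 0.30 and 0.46. Among the sushi domain genes Sez6l2 was lower in PS19 than in WT in microglia and astrocytes, with log2 changes of -2.20 and -0.85, and higher in TG_PS19 than in PS19 microglia, by 1.79. Whether RNA from other classes had a part in these Sez6l2 differences was not tested. Susd4 was lower in PS19 oligodendrocytes than in WT, with a log2 change of -1.31, and Sez6l was higher in TG_PS19 oligodendrocytes than in PS19 ones, by 1.13.

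The genes with the most similar pattern over the 44 sums of tested class and library were found by the Pearson correlation of log2(CPM + 10), among 14364 genes with a mean of at least 5 CPM. These points share libraries and depth, so the values describe the pattern only. For C1qa they included Ctss (0.97), Trem2 (0.97), Ctsd (0.96) and Fcer1g (0.96). For C3 they were Myoc (0.92), Cd44 (0.91), Tex11 (0.82), Mt2 (0.81) and Gfap (0.80). C3 exceeded the added 10 CPM only in the astrocyte sums of the PS19 libraries, at 15.8 and 10.8 CPM. Elsewhere it reached at most 3.16 CPM, so its correlations lean on those astrocyte sums. For C4b the highest values were lower, with Srebf1, Gramd3, Col16a1, Hif3a and Tob2 all at 0.79, so no gene followed its pattern of glial class and genotype as closely.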

How the data were processed

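UMI counts per gene and nucleus were deposited by the authors, unnormalized; Cell Ranger 7.1.0 and GRCm38 stand in the submitters' processing notes, per the labels. Positions come from GENCODE M21, which held 54349 of the 55403 identifiers. The members and lists were chosen with earlier results of these data known. Nuclei needed 500 UMIs, 300 genes and at most 5% mitochondrial UMIs. Doublets, scored by the Scrublet method at 0.8% per 1000 nuclei, were removed (3.70% to 10.2% of barcodes). Clusters came from 2000 variable genes, 30 components, 15 neighbours and Leiden (leidenalg 0.10.2) at resolution 1.0, and were named from 16 marker lists. The 9 members were barred from the variable genes, but the other complement genes were not. In 27 clusters, 4 stayed unnamed. Summed counts of all 4 libraries were fitted per class with edgeR 4.0.16 (R 4.3.3), TMM scaling and the quasi-likelihood test, two-sided, where only the PS19 pair gives a residual degree of freedom. The prior degrees of freedom were infinite in 9 of 11 classes, so p-values lean on the spread pooled over genes. The procedure was tested on simulated data. DESeq2 1.42.0 was an alternative. Named genes are all members, plus each other complement gene that passed in PS19 against WT or TG_PS19 against PS19 in any class; some genes that these rules name are not reported here. Counts of 0 allow up to 3 UMIs. Shares after thinning leave out nuclei under 1000 UMIs. Samples of a label were not stated to be separate animals, so the spread may be technical.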

Additional observations from a re-analysis of the deposited data

Results flagged for a closer look

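The difference in the change of C4b between oligodendrocytes and astrocytes was picked out because the difference itself passed its test. It was 1.22 in PS19 against WT and -1.48 in TG_PS19 against PS19 on the log2 scale, so both changes were larger in oligodendrocytes.

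Nuclei outside the tested classes also held complement transcripts. An unnamed cluster led by Sntb1, Fabp7 and Plekha4 among others held 282 WT nuclei, none from PS19 and 2 from TG_PS19, and in WT its C4b stood at 139.8 CPM and its Cd55 at 66.6 CPM. With nearly all of its nuclei from 1 library, the cluster may be a feature of that library and not a cell type. Ependymal-like nuclei, which line the ventricles, were 27 in PS19 replicate 1, 11 in PS19 replicate 2, 16 in TG_PS19 and 0 in WT. With doublets kept, 18 such nuclei were found in WT and the same numbers in the other libraries, so the 0 in WT depended on doublet removal. In PS19 replicate 1 they held C3 at 65.7 CPM, from 6 UMIs, and C4b at 153 CPM, from 14 UMIs. These levels were not tested.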

How the results depend on the processing

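Of the members, 11 pairs of gene and class passed in PS19 against WT, 15 pairs in TG_PS19 against PS19 and 4 pairs in TG_PS19 against WT. DESeq2 gave 5, 6 and 0. Thinning to 1000 UMIs left 35 pairs tested and gave 5, 5 and 1. In Y-positive nuclei, with 52 pairs tested, the later comparisons gave 7 and 0, and library totals gave 7 in the last. The difference of C4b change between oligodendrocytes and astrocytes was 1.16 with DESeq2 in PS19 against WT, with an adjusted p of 0.0573. Leaving out either PS19 library gave 1.21 to 1.23 in that comparison and -1.48 to -1.47 in TG_PS19 against PS19. In those fits a lone library per group allowed no test.

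Apart from the C1q genes without PS19 replicate 1, the changes of direction found were in TG_PS19 against WT. There C4b in astrocytes, 0.01 as reported, was -0.16 with library totals, -0.022 without a low-count filter, -0.023 at resolution 2.0, -0.023 with the members among the variable genes, -0.052 with doublets kept, -0.20 thinned and -0.036 in the main cluster alone. C4b was 0.38 in 1 oligodendrocyte cluster and 0.27 in Y-positive precursors. C3 in astrocytes was 0.63 thinned and 0.17 in the Gfap and Myoc cluster, where Serping1 was 0.032. Csmd1 in microglia was 0.39 with doublets kept. The causes were not tested. No paired analysis was possible because the groups compared share fewer than 2 replicate numbers. The depth limits C3, Cd55 and C3ar1, which rest on at most 99 UMIs in a tested class of a library.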
